A study of Homo sapiens with 20 samples.

Results

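Human embryonic kidney cells that had been induced to make EGFP-ZFP36 were compared with parental cells that had received the same drug. Of 19353 genes with a probe set of their own, 10735 had a mean log2 level above 4.5 in at least 1 of these groups and form the subject of the comparison. Among them, 9959 lay above 4.5 in both groups, 510 in induced cells alone and 266 in parental doxycycline cells alone, and the remaining 8618 genes were not tested. The genes nearest to that level were PRSS30P and FANK1 on the upper side, whose higher group means were 4.5016 and 4.5025, and PLXDC1 and BEX5 on the lower side, at 4.4996 and 4.4976.

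The EGFP-ZFP36 line was made in HEK293 Flp-In T-REx cells, an adenovirus-transformed embryonic kidney line that carries a tetracycline repressor and an acceptor site for a transgene. The methods call the reference line parental HEK293 cells and do not state whether it carries the repressor and the acceptor site. The induced group (n = 5 arrays) was the stable EGFP-ZFP36 line after 1 µg/ml doxycycline for 16 h, sorted for green fluorescence, and the reference group (n = 5) was the parental line after the same doxycycline exposure. A mock-induced group (n = 5) of the EGFP-ZFP36 line received water and was sorted with fluorescent cells gated out, and a parental vehicle group (n = 5) received water. According to the methods, each group was prepared on 5 different days. Doxycycline flasks of the EGFP-ZFP36 line reached lower confluence and had more rounded and floating cells than water flasks. Parental cells were seeded more densely and grown for a shorter time, to a similar confluence when treatment began. Cell line, transgene integration, seeding, growth time and ZFP36 expression therefore all differ between induced and parental doxycycline cells and cannot be told apart there. The methods give no confluence for parental cells after doxycycline. They say that these cells were handled like the fluorescent ones and name no sort for them. Density at harvest and the fluorescence gate may therefore differ as well. Whether the lines were prepared on the same days or at similar passages is not stated, so day and passage cannot be separated from line either. The sources used here do not state whether the stable line is 1 clone or a pool of integrants.

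ZFP36, also called tristetraprolin, is a zinc finger protein that binds AU-rich elements in the 3′ untranslated regions of mRNAs. It recruits the CCR4-NOT deadenylase and decapping factors, after which the message is degraded. Textbook targets include mRNAs for cytokines, immediate early transcription factors and cell cycle regulators. Parental cells with doxycycline serve as a reference at equal drug exposure, while mock-induced cells serve as a reference for the same line without drug, and parental vehicle cells differ from induced cells in both respects.

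The binding sites below show what ZFP36 was crosslinked to in mRNAs that were lower in induced cells than in every other group. They come from the study's table of crosslinked 3′ UTR sites, in the part used here, for the 8 largest such falls, with JUN added because it was followed by the array too. Coordinates are hg19 on the stated strand, with starts raised by 1 because the length of each sequence equals end minus start in the table, whose convention is not stated; letters are DNA letters written 5′ to 3′, and capitals mark TATT or ATTTA, the shortest forms of the element.
EN2, chr7:155256895-155256919, + strand: taaattaaataTATTcaataTATTt
TMEM33, chr4:41959220-41959240, + strand: taccttactaATTTAaactct
CPE, chr4:166418782-166418806, + strand: ctttaaatctatctatataatgtag
SLC25A24, chr1:108677994-108678015, - strand: ttcttaaactcatttcacttct
PFDN2, chr1:161070414-161070440, - strand: actcccacttctaatttctcttTATTg
DCK, chr4:71896062-71896083, + strand: TATTaaacctttccattttacg
SETD7, chr4:140432142-140432167, - strand: ttctttctatatcatcatttTATTat
RFK, chr9:79000527-79000551, - strand: tctatatctttcaaaaacttttata
JUN, chr1:59246851-59246871, - strand: ttctcTATTagactttagaaa
JUN, chr1:59247078-59247099, - strand: agcactctgagtttaccatttg
JUN, chr1:59247205-59247233, - strand: tatgtacatatataTATTttttaatttga
Of the 839 sites of this length limit (30 bases or fewer) in that part of the table, 641 (76.4%) held TATT on the sense strand, 352 (42.0%) held ATTTA and 679 (80.9%) held either. A missing motif says only that these letters are not in the printed window. The sites were mapped in cells of another construct, and the arrays measure mRNA level, not decay.

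The ZFP36 probe set itself did not pass the test. ZFP36 read 5.48, 5.78, 4.56, 5.63 and 5.67 in the induced arrays and 3.52, 4.12, 4.54, 3.03 and 3.61 in the parental doxycycline arrays, a log2 difference of 1.66 (SE 0.29, limma, Bonferroni-adjusted p = 1). Of the 5 parental doxycycline arrays, 4 were under 4.5, so the size of that difference rests on background readings. Mock-induced arrays read 4.85, 5.67, 5.14, 5.92 and 5.21 and overlapped the induced ones. The difference between the uninduced lines did not pass the test either (limma, Bonferroni-adjusted p = 0.326). The sources used here do not state whether this probe set lies in the part of the mRNA that the construct carries, and it does not check the induction. ZFP36L1 and ZFP36L2, the paralogs with the same zinc finger domain, gave log2 differences of -0.42 and -0.63 between induced and parental doxycycline cells and did not pass the test. ELAVL1, an AU-rich element binding protein known to stabilize mRNAs, had a difference of -0.33 (SE 0.05, limma, Bonferroni-adjusted p = 0.22). Its induced arrays, at 13.07 to 13.18, lay below all parental doxycycline arrays, at 13.40 to 13.51. Against mock-induced cells the difference was -0.38 (limma, Bonferroni-adjusted p = 0.0145) and was not called either. The paper reports a larger fall of ELAVL1 mRNA upon induction than this probe set gave.

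Arrays of a group correlated with each other at 0.9932 to 0.9972. Hybridization controls, which are spiked in after labelling, read 12.04 to 12.33 in induced and 11.83 to 12 in parental doxycycline arrays and did not overlap. Poly-A controls, spiked into the RNA, read 8.588 to 9.206 and 8.427 to 9.012. The 3′ minus 5′ signal of actin, a sign of RNA integrity, was 1.17 to 1.49 in induced and 1.34 to 1.97 in parental doxycycline arrays, and that of GAPDH was -0.018 to 0.0271 and 0.0251 to 0.195. The part of these differences in the results was not tested. Parental vehicle replicate 4 had the lowest correlation with its group and the largest GAPDH value, 0.431.

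At equal drug exposure, 2393 genes were lower and 3079 were higher in induced than in parental doxycycline cells (limma, Bonferroni-adjusted p under 0.01), or 22.3% and 28.7% of the genes tested. The median fold of the called genes was 3.05 for the lower and 2.67 for the higher. In all 5472 called genes the arrays of the groups were fully separated, which held for 8465 genes in all. The median difference over all genes tested was 0.198 on the log2 scale, and a scaling to the hybridization controls moved it to -0.0896. With that centring 57.3% of the calls were lower, against 43.7% as deposited. The level of an mRNA per cell and a share of cells with more or less of it cannot be told apart in these bulk samples.

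Doxycycline alone gave no called gene in parental cells: limma called 0 of the 10735 genes, of which 236 had an unadjusted p under 0.05, and 0 were called after Benjamini-Hochberg adjustment at 0.05. The parental vehicle group was thus a further reference from the same line, and its calls largely followed those of the parental doxycycline group. Against parental vehicle cells, 2322 genes (21.6%) were lower and 2909 (27.1%) were higher in induced cells. Against mock-induced cells, 2470 (23.0%) were lower and 3141 (29.3%) were higher. All 3 comparisons use the same induced arrays, so their calls are not independent of each other.

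With the values as deposited, most changes against parental doxycycline cells were also called against each uninduced reference, but for the higher genes this depended on the setting. Of the 2393 lower genes, 1758 (73.5%) were lower than mock-induced and parental vehicle cells as well, 477 (19.9%) shared the call with parental vehicle cells alone, 82 (3.43%) with mock-induced cells alone and 76 (3.18%) with neither. The 3079 higher genes divided in the same order into 2067 (67.1%), 694 (22.5%), 171 (5.55%) and 147 (4.77%). The share of higher genes called against every reference was 20.1% with centring on the poly-A controls (502 of 2494), 36.2% with a separate spread for each group (534 of 1476) and 49.9% with the replicate block (951 of 1905). For the lower genes it was 74.2%, 54% and 65.9% in the same settings. Counted over each list, 1840 of the lower calls were shared with mock-induced cells, or 76.9% of this list and 74.5% of the other, and 2238 of the higher calls, or 72.7% and 71.3%. With parental vehicle cells 2235 lower calls were shared (93.4% and 96.3%) and 2761 higher calls (89.7% and 94.9%).

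**Figure D1:**
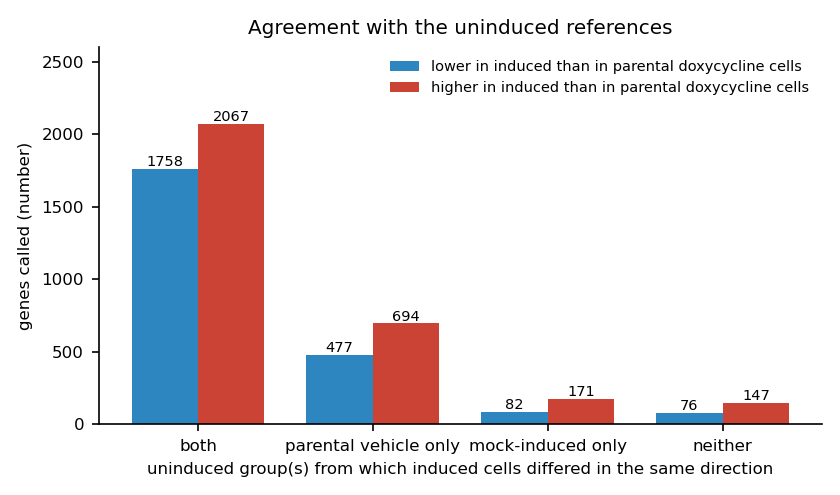
Number of genes called lower or higher in induced than in parental doxycycline cells, divided by which uninduced reference gave the same call (both, parental vehicle alone, mock-induced alone, neither). The largest class in each direction is the one shared with both references, 1758 lower and 2067 higher genes.

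The line difference without drug was measured on arrays that the main comparison does not use. Between mock-induced and parental vehicle cells, 1181 genes (11.0%) were lower and 1385 (12.9%) were higher in the EGFP-ZFP36 line. Of these, 537 were also lower in induced than in parental doxycycline cells, which is 45.5% of the line list and 22.4% of the induced list. A further 749 were higher in both, 54.1% and 24.3%. The opposite call was given to 173 lower and 94 higher genes of the induced list.

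Whether the line difference changed with drug was tested over all 20 arrays. It was lower with doxycycline than without for 2355 genes (21.9%) and higher for 2802 (26.1%). The sum of both, 5157, was 3220 with centring on the hybridization controls and 1462 with centring on the poly-A controls. Among the 1758 genes lower than every reference, 1716 also had a negative call in this test, with a median of -1.72 against parental doxycycline, -1.69 against mock-induced cells and -0.09 between the uninduced lines. For the 477 shared with parental vehicle cells alone the medians were -1.31, -0.3 and -0.99, and 434 had no call for the change with drug. The higher genes gave 1.47, 1.31 and 0.15 where both references agreed, and 1.55, 0.4 and 1.17 where only the parental vehicle cells did, of which 621 had no call for the change. These classes are defined by the same arrays, so the medians describe them and are not a test.

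**Figure D2:**
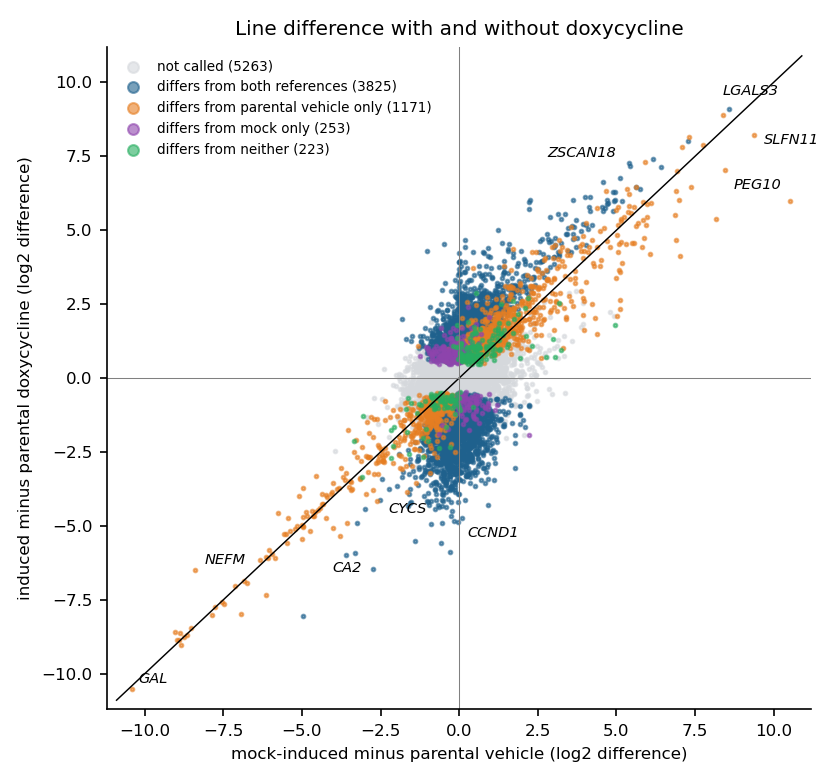
Each point is 1 of the 10735 genes, with the log2 difference between the uninduced lines (mock-induced minus parental vehicle) on the x axis and the log2 difference at equal drug exposure (induced minus parental doxycycline) on the y axis. Colours give the class of the call (both references 3825 genes, parental vehicle alone 1171, mock-induced alone 253, neither 223, not called 5263), and genes shared with the parental vehicle alone lie along the diagonal while those shared with both references spread away from it.

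The largest differences belonged to genes that already separated the uninduced lines. GAL, the neuropeptide galanin, read 2.22, 2.19, 2.30, 2.19 and 2.19 in induced arrays and 12.53, 12.50, 12.81, 12.78 and 12.98 in parental doxycycline arrays. Every induced array was at background, so GAL was at least 299-fold lower (limma, Bonferroni-adjusted p = 9.04e-15), and mock-induced arrays read 2.19 to 2.39. Its interaction with drug did not pass the test.

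GSTP1, a glutathione transferase that detoxifies electrophiles, read 5.07, 5.57, 5.46, 4.85 and 4.68 in induced arrays. In the parental doxycycline arrays it read 12.92, 12.57, 12.84, 12.49 and 12.66, which made it 190-fold lower in induced cells (limma, Bonferroni-adjusted p = 3.96e-10), while mock-induced arrays read 4.76 to 5.99. Induced and mock-induced arrays thus overlapped, far below both parental groups. SNAI2, a transcription factor of epithelial to mesenchymal transition, read 2.19 to 2.30 in induced, 10.93 to 11.50 in parental doxycycline and 2.19 to 2.30 in mock-induced arrays, a fall of at least 110-fold. AMOT, the junction protein angiomotin, read 4.80 to 5.08 in induced, 9.34 to 9.82 in parental doxycycline and 4.79 to 5.23 in mock-induced arrays, 25.3-fold lower. Like GAL and GSTP1, these genes were low in the stable line in either state.

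LRATD2 read 5.70, 6.36, 5.86, 5.56 and 5.65 in induced arrays and 13.74 to 13.83 in parental doxycycline arrays, a 251-fold difference, with 6.63 to 7.03 in mock-induced arrays. PNMA8A, ZC3HAV1L, the cancer-testis antigen MAGEB2 and TMEM47 were at least 97.0-, 180-, 126- and 82.9-fold lower, each with every induced and every mock-induced array under 4.5. The long non-coding RNA LINC02985 was 33.3-fold lower. All of these shared their call with parental vehicle cells alone, as did GAL, GSTP1, SNAI2 and AMOT.

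Genes present in the stable line and near background in parental cells formed the other end. LGALS3, the sugar-binding lectin galectin-3, read 12.75, 12.75, 12.66, 12.67 and 12.63 in induced arrays and 3.51, 3.60, 3.51, 3.51 and 3.86 in parental doxycycline arrays. It was at least 292-fold higher (limma, Bonferroni-adjusted p = 5.82e-15), and mock-induced arrays, at 12.05 to 12.22, lay slightly below every induced array. LGALS3BP, a secreted glycoprotein that binds galectins, was 63.4-fold higher, with means of 11.18, 5.19 and 10.16 in induced, parental doxycycline and mock-induced cells. Both genes were high in the stable line without drug.

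KRT19, an intermediate filament keratin of simple epithelia, read 10.19 to 10.54 in induced, 2.19 to 2.25 in parental doxycycline and 9.35 to 9.75 in mock-induced arrays, a rise of at least 58.7-fold. OCIAD2 was at least 125-fold higher and LXN, the carboxypeptidase inhibitor latexin, at least 66.1-fold higher. RIOX1, a nucleolar oxygenase, was at least 75.5-fold higher. CYBA, a membrane subunit of the NADPH oxidase, was 33.4-fold higher and read 12.11 to 12.28 in mock-induced arrays, where it was not called. UBE2QL1, LOC100505715 and GALNT14, the last an enzyme that starts O-linked glycosylation, were 64.2-, 40.8- and 36.9-fold higher and were called against every reference.

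**Figure D3:**
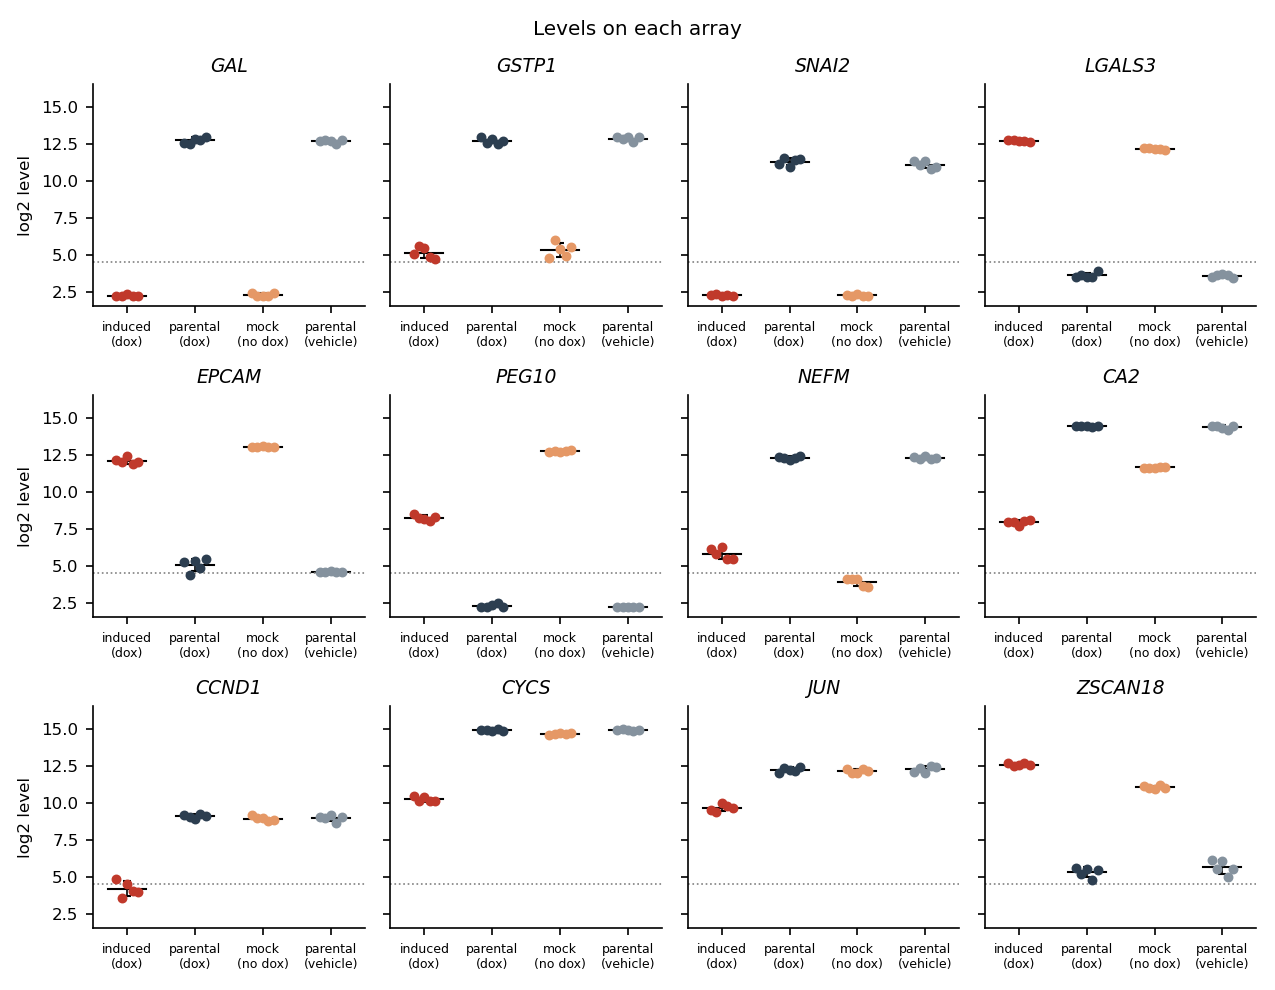
Log2 levels of 12 genes in each of the 20 arrays, with groups along the x axis, points for arrays, a line for the group mean, a bar for the SD and a dotted line at 4.5, the level used as the detection limit. GAL, GSTP1, SNAI2, LGALS3 and ZSCAN18 separate the stable line from the parental line in either drug state, while CCND1, CYCS and JUN are low in the induced group alone.

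Other genes stood near the parental level in mock-induced cells and apart from it in induced cells. CYCS, the respiratory carrier cytochrome c that also activates caspases, read 10.46, 10.12, 10.35, 10.10 and 10.11 in induced arrays. Parental doxycycline arrays read 14.92, 14.90, 14.84, 14.96 and 14.86, a 25.4-fold difference (limma, Bonferroni-adjusted p = 1.7e-11), and mock-induced arrays read 14.57 to 14.72. The induced group alone was low, and the difference between the line differences was -4.41 on the log2 scale (limma, Bonferroni-adjusted p = 6.7e-18).

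CA2, a carbonic anhydrase, read 7.69 to 8.11 in induced, 14.39 to 14.43 in parental doxycycline and 11.59 to 11.69 in mock-induced arrays. It was 88.3-fold lower at equal drug exposure, and the 3 groups occupied separate levels with mock-induced cells in the middle. SLC39A10, a zinc importer, took the same order at 6.2 to 6.77, 11.89 to 12.24 and 10.49 to 10.72, a 46.0-fold difference. HIGD1A, a mitochondrial inner membrane protein, was 22.8-fold lower with mock-induced arrays, at 12.68 to 12.79, close to the parental doxycycline arrays at 12.92 to 13.07. DTD2, an enzyme that removes mischarged amino acids from tRNA, was 21.7-fold lower. HEY1, a transcriptional repressor induced by Notch, fell in steps from 14.27 in parental doxycycline to 11.31 in mock-induced and 9.85 in induced cells, 21.4-fold in all.

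Genes with the printed sites were among those low in the induced group alone. EN2, an engrailed homeobox factor whose site holds TATT at 2 places, read 6.34, 6.30, 6, 5.92 and 6.28 in induced, 10.08 to 10.20 in parental doxycycline and 9.58 to 9.75 in mock-induced arrays. It was 15.7-fold lower than in parental doxycycline cells (limma, Bonferroni-adjusted p = 3.91e-10). TMEM33, an endoplasmic reticulum membrane protein and the only one of the 8 with ATTTA in the window, was 12.9-fold lower, with 7.87 to 8.19, 11.69 to 11.76 and 11.34 to 11.55 in the same order. Neither gene had an induced array near any other group.

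CPE, the carboxypeptidase that trims prohormones, was 11.8-fold lower at 6.25 to 7.27 against 10.10 to 10.47, and mock-induced arrays were higher still at 11.09 to 11.53. DCK, which phosphorylates deoxycytidine, was 9.3-fold lower, at 7.93 to 8.31 against 11.29 to 11.43. SLC25A24, a mitochondrial nucleotide carrier, the prefoldin subunit PFDN2, the lysine methyltransferase SETD7 and RFK, which makes flavin mononucleotide, were 9.88-, 9.35-, 9.25- and 9.06-fold lower. These genes were selected for their fall, so the falls are a description. SETD7 is the one of the 8 with a called line difference, -0.49.

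Zinc finger genes were among the largest rises. ZSCAN18 read 12.65, 12.45, 12.56, 12.65 and 12.54 in induced arrays and 5.58, 5.19, 5.49, 4.77 and 5.45 in parental doxycycline arrays, 154-fold higher (limma, Bonferroni-adjusted p = 6.5e-11). Mock-induced arrays read 10.95 to 11.17, so most of the distance was present without drug and a further 1.52 separated induced from mock-induced cells. ZNF404 was 78.6-fold higher with 12.12 to 12.42 in induced, 5.46 to 6.33 in parental doxycycline and 10.57 to 10.74 in mock-induced arrays. ZNF875 was 33.4-fold and ZNF544 at least 64.5-fold higher. Each of these 4 was also called against every reference. ZNF83 was at least 87.3-fold higher than in parental doxycycline cells by its brightest probe set but was not called against mock-induced cells (limma, Bonferroni-adjusted p = 0.0157), and its difference was 1.00 on the log2 scale and not called when probe sets that can bind several transcripts were left out.

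The leading zinc finger genes lie on chromosome 19, and the grouping by chromosome that follows was chosen after their values were seen and carries no test. Of 376 zinc finger genes tested (numbered ZNF, ZSCAN and ZKSCAN symbols), 182 (48.4%) were higher and 27 (7.18%) were lower in induced than in parental doxycycline cells. The 162 on chromosome 19 had 123 higher (75.9%) and 2 lower, with a median of 2.27. Without drug the line difference was called higher for 86 of them (53.1%) and lower for 1, with a median of 1.3, and 72 (44.4%) were higher in induced than in mock-induced cells, with a median of 0.88. The 214 elsewhere had 59 higher (27.6%, against 28.7% over all genes tested) and 25 lower (11.7%, against 22.3%).

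Other genes of chromosome 19 were shifted as well. Of its 517 remaining genes, 252 (48.7%) were higher and 19 lower, with a median of 0.84, while the uninduced lines gave 82 higher (15.9%) and 30 lower. Against mock-induced cells, 234 of these 517 genes (45.3%) were higher and 21 lower, with a median of 0.76. Chromosomes 16 and 17 leaned the same way against parental doxycycline cells, with 35.5% and 32.5% higher and 9.83% and 11.9% lower. Over all genes tested these shares were 28.7% and 22.3%. Taken whole, chromosome 19 held 375 higher (55.2%) and 21 lower (3.09%) genes of 679. Centring on the hybridization controls, the poly-A controls and the median gave 302, 332 and 364 higher of 679. Averaged probe sets gave 348 higher of 614, and leaving out the less specific ones gave 277 of 496. Lower genes numbered 15 to 32 in these 5 settings. Its zinc finger genes held 114 to 127 higher of 162 under the scalings. They held 113 of 145 with averaged probe sets and 103 of 139 without the less specific ones, with 2 lower in each setting.

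Chromosome 21 showed a different composition. Of its 107 genes, 46 (43.0%) were higher than in parental doxycycline cells and 44 (41.1%) were higher between the uninduced lines, with 21 (19.6%) higher than in mock-induced cells. Over all genes tested the shares higher in these comparisons were 28.7%, 12.9% and 29.3%. On chromosome 13, 62 genes (29.1%) were higher between the uninduced lines, and 38 (17.8%) were higher and 87 (40.8%) lower when induced cells were set against mock-induced cells, where all genes gave 29.3% and 23.0%. Chromosome 3 had 23.4% and the X chromosome 23.8% of its genes lower between the uninduced lines, against 11.0% over all genes, and chromosome 22 had 2.45% higher, against 12.9%. Chromosome copy number was not measured here.

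**Figure D4:**
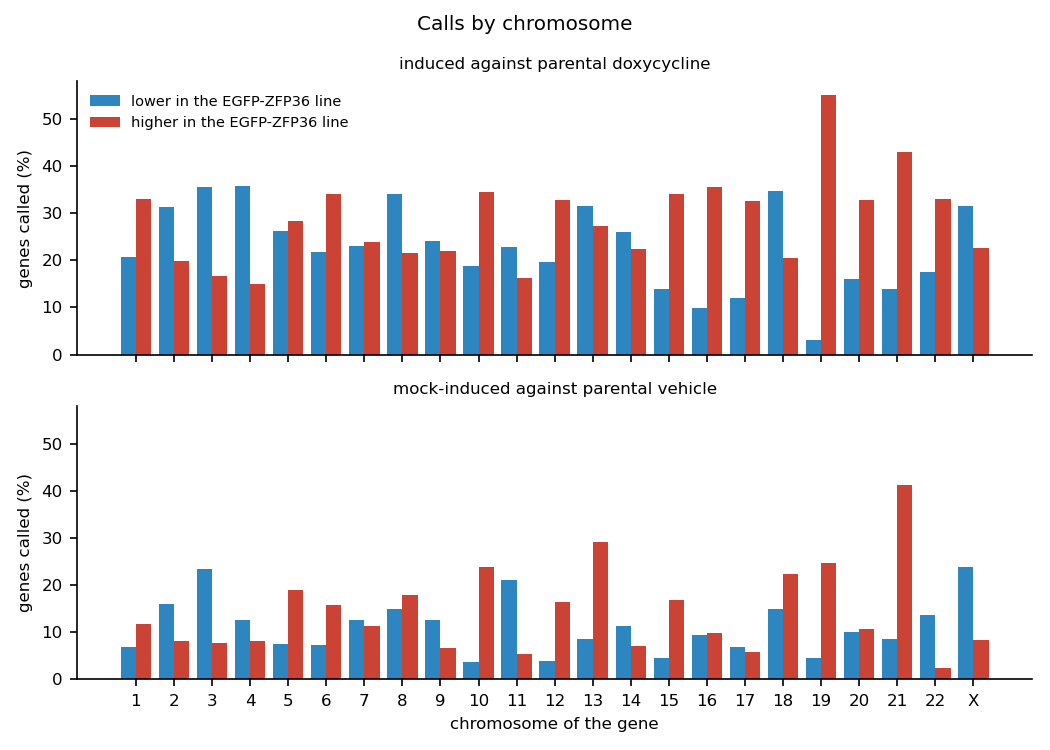
Percent of the tested genes of each chromosome (x axis) that were called lower (blue bars) or higher (red bars) in induced against parental doxycycline cells (upper panel) and in mock-induced against parental vehicle cells (lower panel). Chromosome 19 stands out at 55.2% higher at equal drug exposure, and chromosome 21 has similar shares in both comparisons (43.0% and 41.1%).

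For 71 genes the direction depended on the reference, 15 lower than parental doxycycline but higher than mock-induced cells and 56 the reverse. That count was 11 with a separate spread for each group, 26 with the replicate block, 33 without a level filter, 117 with centring on the poly-A controls, 129 in 1 model over all arrays and 845 with Benjamini-Hochberg adjustment. EPCAM, an epithelial cell adhesion molecule, read 12.17, 11.98, 12.38, 11.84 and 12.01 in induced arrays, 5.26, 4.39, 5.30, 4.84 and 5.43 in parental doxycycline arrays and 12.99 to 13.09 in mock-induced arrays. It was 131-fold higher than in parental doxycycline cells (limma, Bonferroni-adjusted p = 2.93e-09) and lower than in mock-induced cells. PEG10, an imprinted gene of retrotransposon origin, read 8.49, 8.24, 8.18, 8.04 and 8.28 in induced, 2.19 to 2.46 in parental doxycycline and 12.69 to 12.84 in mock-induced arrays. Induced cells thus stood between the silent parental state and the high mock-induced state.

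SLFN11, a gene known for blocking stressed replication forks, took that order too, at least 81.1-fold above parental doxycycline cells with 10.70 to 11 in induced and 11.68 to 11.93 in mock-induced arrays. RAI2 and EPM2AIP1 were at least 42.1- and 39.1-fold higher than in parental doxycycline cells and lower than in mock-induced cells. NEFM, the medium neurofilament subunit, had the reverse pattern at 5.42 to 6.27 in induced, 12.15 to 12.38 in parental doxycycline and 3.53 to 4.08 in mock-induced arrays. It was 89.7-fold lower than in parental doxycycline cells, and its line difference changed with drug (limma, Bonferroni-adjusted p = 0.000165). The size of that change has no exact value, since every mock-induced array was under 4.5.

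A further 1462 genes were called against mock-induced cells and not against parental doxycycline cells, 574 lower and 888 higher. For 640 of them the uninduced lines differed in the opposite direction. This selection favours that direction, because the parental groups were alike and the comparisons share arrays, so the count is a description. PMAIP1, the p53-induced apoptosis factor NOXA, named with the next genes after their values were seen, had means of 12.76 in induced, 12.47 in parental doxycycline, 14.59 in mock-induced and 12.36 in parental vehicle cells. BCL2, which blocks apoptosis, read 5.84, 5.86, 7.48 and 5.95 in that order, and the death receptor FAS read 7.93, 7.49, 9.53 and 7.56. In these genes mock-induced cells stood apart from the other 3 groups. COL1A1, the main chain of type I collagen, had 9.15, 8.47, 6.84 and 8.56.

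The gene lists that follow were counted in the main comparison unless another is named. Their shares read against 22.3% lower and 28.7% higher over all genes tested, whose median was 0.198. Counts against mock-induced cells read against 23.0% lower and 29.3% higher (median 0.212). Those between the uninduced lines read against 11.0% and 12.9% (median -0.001). Of all lower and higher calls of the main comparison, 73.5% and 67.1% were called against every reference. Medians near 0 depended on the setting: centring on the hybridization controls turned those of the ZFP36 family (-0.24), deadenylation (-0.03), immediate early genes (-0.03), cyclins (-0.22), apoptosis (-0.12), cytosolic ribosomal proteins (-0.21) and oxidative phosphorylation (-0.26). Averaging the probe sets of a gene or leaving out the less specific ones turned the medians of the RNA exosome (0.10), cytokine signalling (0.01), ribosome biogenesis (0.06) and p53 targets (-0.17). Counts depended on the setting as well. Centring on either set of controls left 14 higher DNA replication genes, 5 in decapping, 4 in the proteasome, 3 in glycolysis and 1 in oxidative phosphorylation, fewer than those given below. The hybridization controls also left 2 higher genes in each of the ZFP36 family and Wnt and Notch signalling and 4 in cell adhesion, and gave 11 lower genes in cytokine signalling. The poly-A controls left 5 lower genes in the list of AU-rich element binding and further RNA-binding proteins and 5 in the exosome. They left 3 lower genes in each of DNA replication and ribosome biogenesis. Genes above 4.5 in 1 group alone passed the level limit through the group where they are high, and are counted apart for the lists where they matter. Of 14 tested genes of the ZFP36 family and its kinase pathway, 2 were lower and 5 were higher (median 0.05). For the 11 above 4.5 in both groups it was 2 and 3 (median -0.43). MAPK13, a p38 kinase of the branch that phosphorylates ZFP36, read 8.23 to 8.46 in induced, 2.55 in every parental doxycycline and 7.27 to 7.50 in mock-induced arrays, at least 14.3-fold higher. YWHAZ, a 14-3-3 protein of the family that binds phosphorylated ZFP36, was 6.05-fold lower and PPP2CB, a catalytic subunit of protein phosphatase 2A, was 3.2-fold lower. MAPKAPK2, the kinase that phosphorylates ZFP36 (named after its values were seen), was 0.75 higher on the log2 scale and called.

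Of 32 textbook ZFP36 targets with a probe set, 18 were tested, and 8 of these were lower and 1 was higher (median -0.79). For the 17 above 4.5 in both groups it was 7 and 1 (median -0.76). CCND1 passed the level limit through parental doxycycline cells alone. Of the 8 lower genes, 6 were lower than every reference, near the share of 73.5% over all lower calls. CCND1, the G1 cyclin D1, read 4.84, 3.58, 4.51, 4.04 and 3.98 in induced and 9.18, 9, 8.87, 9.20 and 9.11 in parental doxycycline arrays, a called difference (limma, Bonferroni-adjusted p = 3.92e-07). Of the induced arrays 3 were under 4.5, and measured from 4.5 CCND1 was at least 23.8-fold lower. Mock-induced arrays, at 8.75 to 9.13, were level with the parental ones and did not overlap the induced ones.

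JUN, a subunit of the AP-1 transcription factor with 3 printed sites, read 9.51, 9.35, 9.99, 9.76 and 9.66 in induced arrays. Parental doxycycline arrays read 11.99 to 12.39 and mock-induced arrays 12.01 to 12.30, and JUN was 5.9-fold lower at equal drug exposure (limma, Bonferroni-adjusted p = 2e-06). Another probe set gave -0.90 on the log2 scale and no call. CDKN1A, the CDK inhibitor p21, was 4.38-fold lower at 5.61 to 6.02 against 7.81 to 8.08. HIF1A, the oxygen-regulated transcription factor subunit, was 2.99-fold lower at 10.91 to 11.09 against 12.50 to 12.65. MYC, ODC1 and NOTCH1, named after their values were seen, had called log2 differences of -1.52, -1.05 and -0.83, and LATS2 had 1.15.

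A list of other AU-rich element binding proteins and further RNA-binding proteins had 8 of 25 genes lower and 3 higher (median -0.05). All 11 were called against every reference, which held for 73.5% of all lower and 67.1% of all higher calls. Averaging the probe sets of each gene gave 11 lower and 1 higher (median -0.51), and leaving out the less specific ones gave 8 and 1 of 19 (median -0.70). Among the further RNA-binding proteins, QKI, which controls splicing and stability, was 4.83-fold lower and PCBP1, which binds C-rich stretches, 2.58-fold. HNRNPAB was 3.87-fold lower. Deadenylation had 2 of 20 lower and 6 higher (median 0.26), with the CCR4-NOT subunit CNOT2 3.07-fold higher and the antiproliferative recruiters of that complex, TOB1 and BTG3, 3.66- and 4.1-fold lower. The fall of BTG3 was not called with another probe set, -0.86.

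Decapping and 5′ to 3′ decay had 3 of 21 lower and 8 higher (median 0.51), led by the decapping enhancer EDC3, 3.78-fold higher, with LSM4 2.17-fold higher and LSM6, of the same ring complex, 2.74-fold lower. The RNA exosome, which degrades RNA from the 3′ end, had 8 of 17 lower and 5 higher (median -0.39). Its cofactor C1D was 7.47-fold lower and its nuclease DIS3 3.31-fold lower, while the nuclear nuclease EXOSC10 was 4.03-fold higher. Stress granule proteins had 4 of 12 lower and 0 higher (median -0.55), and 7 lower and 1 higher with averaged probe sets (median -0.92). G3BP1 and G3BP2, which nucleate these granules, were 5.21- and 5.25-fold lower, and CAPRIN1, their partner, 2.19-fold lower, a call lost with another probe set (-0.40).

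Immediate early genes depended on the reference. Of 24 tested genes, 9 were higher and 5 lower than in parental doxycycline cells (median 0.26), 0 were higher and 5 lower than in mock-induced cells, and 10 were higher between the uninduced lines. Over all genes tested, 29.3% were higher and 23.0% lower than in mock-induced cells, and 12.9% were higher between the uninduced lines. The 20 genes above 4.5 in both groups had 6 higher and 5 lower than in parental doxycycline cells (median -0.16). DUSP6, a phosphatase that acts on ERK, read 7.41 to 7.64 in induced, 2.66 to 3.75 in parental doxycycline and 8.93 to 9.29 in mock-induced arrays, at least 8.45-fold above parental doxycycline and below mock-induced cells. DUSP4, of the same family, was 7.45-fold higher and read 7.51 to 8.34 in mock-induced arrays.

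EGR1, a zinc finger transcription factor named with DUSP5, CCN1 and RHOB after their values were seen, had means of 8.82 in induced, 4.27 in parental doxycycline, 9.99 in mock-induced and 4.68 in parental vehicle cells. DUSP5 had 9.24, 4.58, 9.09 and 4.88 in that order, and the matricellular CCN1 had 10.88, 8.22, 10.91 and 8.16. These genes were high in the stable line in either state. RHOB, a short-lived small GTPase mRNA, was lower than every reference at 6.2, 10.12, 8.6 and 10.20.

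Cyclins, CDKs and CDK inhibitors had 9 of 30 lower and 6 higher (median 0.07), with cyclin A2 (CCNA2) 4.24-fold and cyclin E2 (CCNE2) 3.88-fold lower and the S phase factor E2F2 5.7-fold higher. DNA replication genes had 22 of 44 higher and 6 lower (median 0.71), against 14 higher with centring on either set of controls. Of the 22 higher ones, 21 were higher than every reference, against 67.1% of all higher calls. ORC3, of the origin recognition complex, was 4.88-fold higher, and the replicative helicase subunits MCM5 and MCM3, named after their values were seen, were 2.20 and 1.71 higher on the log2 scale. RRM2, the ribonucleotide reductase subunit that limits dNTP supply, went the other way at 10.08 to 10.47 in induced against 13.95 to 14.04 in parental doxycycline and 13.85 to 13.93 in mock-induced arrays, 12.7-fold lower. The clamp loader subunit RFC5 was 4.35-fold lower.

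Mitosis genes had 6 of 29 lower and 5 higher (median -0.06). The spindle checkpoint kinase TTK and the kinetochore protein NDC80 were 4.59- and 3.86-fold higher, and the condensin subunit SMC2 was 5.13-fold lower. Replication-dependent histones had 3 of 4 tested genes higher (median 1.68), H4C8 at least 6.11-fold, H2AC6 4.01-fold and H2BC12 2.55-fold. H4C8 passed the level limit through induced cells alone. The 3 histone genes above 4.5 in both groups had 2 higher and 0 lower (median 1.35).

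p53 targets had 5 of 21 lower and 3 higher (median 0.43), against 10 lower and 4 higher relative to mock-induced cells (median -0.63). Over all genes tested, 23.0% were lower and 29.3% higher relative to mock-induced cells. The stress-induced sestrins moved apart, SESN2 5.35-fold higher and SESN3 2.72-fold lower. Apoptosis regulators had 6 of 23 lower and 3 higher (median 0.17), and 11 lower and 8 higher relative to mock-induced cells (median -0.73). Beside CYCS, the caspase inhibitors XIAP and BIRC2 were 2.99- and 2.19-fold lower.

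Genes of the integrated stress response, the ATF4 programme of amino acid shortage, had 15 of 29 higher and 7 lower (median 0.81), and 12 of 26 and 7 (median 0.56) among those above 4.5 in both groups. DDIT3, the transcription factor CHOP, read 10.14, 10.12, 9.95, 9.86 and 9.82 in induced, 6.17 to 6.35 in parental doxycycline and 7.32 to 7.79 in mock-induced arrays, 13.4-fold higher (limma, Bonferroni-adjusted p = 1.52e-10). INHBE, an activin subunit gene, read 6.88 to 7.52 in induced arrays and 2.40 to 2.43 in parental doxycycline arrays, at least 5.94-fold higher. No uninduced array came near the induced ones in either gene.

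CHAC1, which degrades glutathione and was named with ALDH1L2 after their values were seen, had means of 8.29 in induced and 3.98, 3.14 and 4.16 in parental doxycycline, mock-induced and parental vehicle cells. Of the 29 genes, 9 had a lower and 3 a higher line difference without drug, and 5 of the 7 lower members were among those 9. Over all genes tested the line difference was lower for 11.0% and higher for 12.9%. ALDH1L2, a mitochondrial folate enzyme, had means of 5.86, 9.08, 5.51 and 9.12 in induced, parental doxycycline, mock-induced and parental vehicle cells. MTHFD2, of the same pathway, was lower than every reference, 3.55-fold at equal drug exposure.

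The unfolded protein response of the endoplasmic reticulum had 9 of 22 lower and 2 higher (median -0.42). The co-chaperone DNAJC3 and the disulfide isomerase PDIA4 were 3.36- and 2.73-fold lower, and HERPUD1, of the degradation machinery, was 2.48-fold higher. Heat shock genes had 8 of 16 lower and 0 higher (median -0.83), of which HSPH1, HSPE1 and DNAJA1, all chaperones or their partners, were 3.86-, 3.06- and 2.89-fold lower. Of the 8 lower heat shock genes, 6 were lower than every reference, near the share of 73.5% over all lower calls.

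Of 31 interferon-stimulated genes with a probe set, 17 were tested, and 7 of these, IFIH1, RIGI and PARP9 among them, passed the level limit through induced cells alone. The 10 genes above 4.5 in both groups had 6 higher and 0 lower (median 1.66), and all 17 had 11 higher and 0 lower (median 2.87, or 1.8 over 15 genes with averaged probe sets), a count and a median that this filter favours. The mean log2 level over all 31 genes was 5.09 to 5.30 in induced, 3.73 to 3.83 in parental doxycycline and 4.39 to 4.51 in mock-induced arrays, and 13 of the genes were under 4.5 on all 20 arrays. IFIH1, the RNA sensor MDA5, read 8.64, 8.39, 8.34, 7.99 and 8.34 in induced, 2.51 to 3.06 in parental doxycycline and 7.01 to 7.34 in mock-induced arrays, at least 14.3-fold higher (limma, Bonferroni-adjusted p = 5.23e-10). RIGI, the sensor RIG-I, read 6.67 to 6.99 in induced, 2.36 to 2.55 in parental doxycycline and 2.65 to 4.03 in mock-induced arrays, at least 4.96-fold higher. IFITM1, which restricts viral entry, was 9.98-fold higher, with 8.46 to 8.53, 5.07 to 5.44 and 5.94 to 6.58 in that order.

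These interferon-stimulated genes thus differed in how much of the distance was present without drug. IFIT1, which binds foreign RNA ends and was named with PARP9 after their values were seen, had means of 10.31 in induced, 6.38 in parental doxycycline and 6.52 in mock-induced cells, while PARP9 had 5.98, 2.35 and 6.15. Of the 17 genes, 8 were higher between the uninduced lines, 9 were higher than in mock-induced cells and 9 were higher than every reference. Over all genes tested, 12.9% were higher between the uninduced lines and 29.3% were higher than in mock-induced cells.

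**Figure D5:**
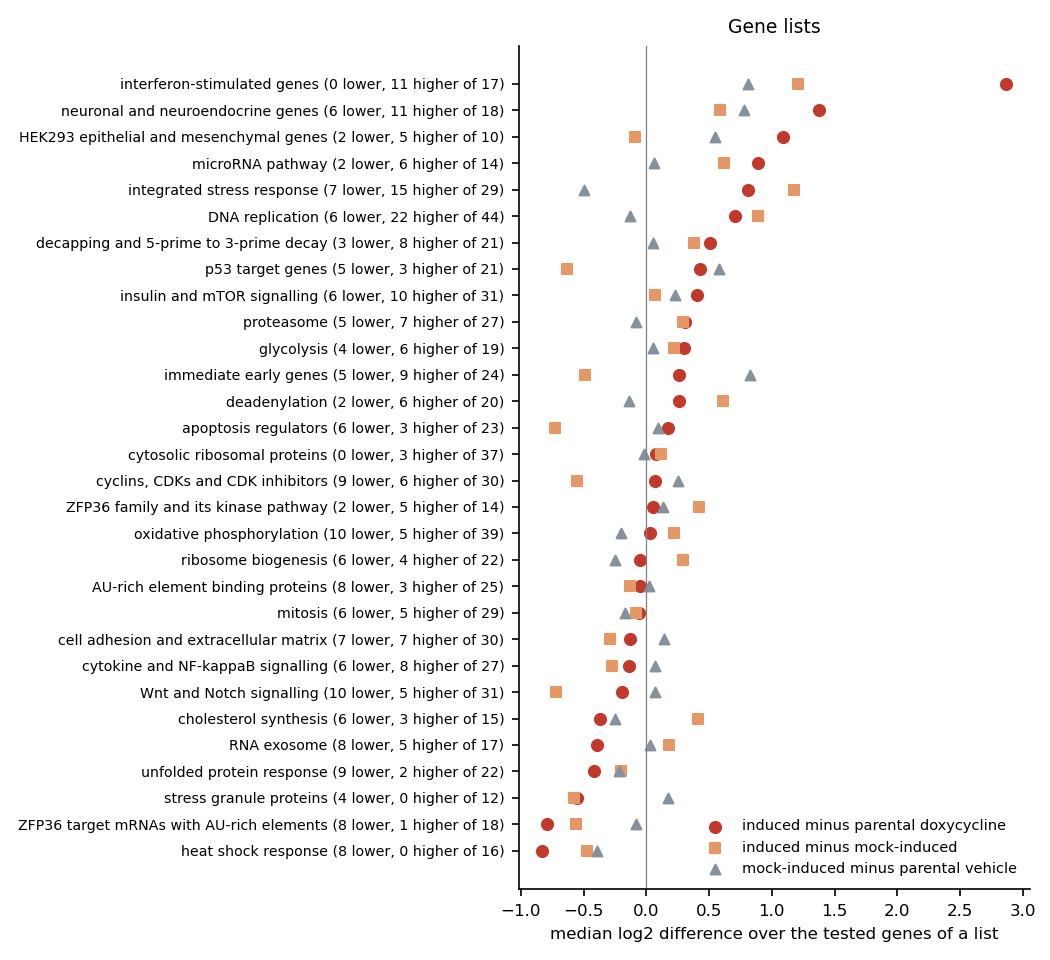
Median log2 difference over the tested genes of each list with at least 10 tested genes, for induced minus parental doxycycline, induced minus mock-induced and mock-induced minus parental vehicle cells. With the brightest probe set of each gene, interferon-stimulated genes are at 2.87 and heat shock genes at -0.83 at equal drug exposure. With averaged probe sets they are at 1.8 and -0.74, and stress granule proteins are lower still at -0.92.

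Insulin and mTOR signalling had 6 of 31 lower and 10 higher (median 0.4). RHEB, the GTPase that activates mTORC1, was 7.07-fold lower and its relative RHEBL1 at least 5.6-fold higher, and TSC1, of the complex that inactivates RHEB, was 4.76-fold higher. Cytokine and NF-kappaB signalling had 6 of 27 lower and 8 higher (median -0.14). PTPN11, the phosphatase SHP2, read 10.47 to 10.65 in induced and 13.28 to 13.42 in parental doxycycline arrays, 7-fold lower, the shared cytokine receptor IL6ST was 3.45-fold lower and the TNF receptor TNFRSF1A was 3.75-fold higher.

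Wnt and Notch signalling had 10 of 31 lower and 5 higher (median -0.19). Beside HEY1, the Wnt receptor FZD5 was 5.44-fold lower. JAG1, a Notch ligand, read 8.73 to 9.06 in induced, 5.93 to 6.48 in parental doxycycline and 10.43 to 10.59 in mock-induced arrays, 6.51-fold higher than the former and lower than the latter. The microRNA pathway had 2 of 14 lower and 6 higher (median 0.89). LIN28B, which blocks let-7 maturation, read 9.10 to 9.30 in induced, 12.63 to 12.82 in parental doxycycline and 12.14 to 12.31 in mock-induced arrays, 11.3-fold lower, and DROSHA and AGO3 were 2.39- and 2.7-fold higher.

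Cytosolic ribosomal proteins, the protein part of the translating ribosome, had 3 of 37 higher and 0 lower (median 0.08). RPL22 was 3.3-fold and RPL11 1.57-fold higher, and RPL31 was 1.90 higher on the log2 scale by its brightest probe set but -2.22 when probe sets that can bind several transcripts were left out, so its direction depends on the probe set. Proteasome genes had 5 of 27 lower and 7 higher (median 0.31), with PSMC4 4.82-fold and PSMD8 3.23-fold higher and PSMA3 2.41-fold lower. Ribosome biogenesis had 6 of 22 lower and 4 higher (median -0.05), with WDR12 2.99-fold and RRS1 3.72-fold lower and the RNA polymerase subunit POLR1C 2.37-fold higher. The call of PSMA3 was lost when its probe sets were averaged (-0.39).

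Oxidative phosphorylation had 10 of 39 lower and 5 higher (median 0.03). The complex I core subunit NDUFS1 read 8.30 to 8.67 in induced, 11.56 to 11.90 in parental doxycycline and 11.04 to 11.26 in mock-induced arrays, 9.85-fold lower, and the accessory subunit NDUFB6 was 4.37-fold lower. Glycolysis had 4 of 19 lower and 6 higher (median 0.3), with hexokinase HK2 6.01-fold and the pyruvate dehydrogenase kinase PDK1 3.55-fold lower and GPI, the phosphoglucose isomerase, 2.7-fold higher. Cholesterol synthesis had 6 of 15 lower and 3 higher (median -0.37). SC5D, SQLE and MSMO1, all enzymes of its later steps, were 12.8-, 6.88- and 7.38-fold lower and lower than every reference.

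Cell adhesion and extracellular matrix genes had 7 of 30 lower and 7 higher (median -0.13). The basement membrane proteins NID1 and LAMC1 were 12.4- and 7.62-fold lower, and the integrin subunit ITGB1 was 3.01-fold lower at 10.66 to 10.86 in induced, 12.30 to 12.43 in parental doxycycline and 13.46 to 13.48 in mock-induced arrays. For ITGB1 the mock-induced group was the highest and the induced group the lowest.

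Neuronal and neuroendocrine genes, which HEK293 cells are known to express in part, had 6 of 18 tested genes lower and 11 higher (median 1.38), of which 4 lower and 4 higher ones were under 4.5 on average in the lower group. Beside GAL and NEFM, the synaptic SYT1 and the growth cone protein GAP43, named after their values were seen, were under 4.5 in the stable line, with means of 2.29 and 2.51 in induced and 6.68 and 6.48 in parental doxycycline cells. CHGB, a granin of secretory granules, read 8.37 to 8.68 in induced, 2.36 to 2.85 in parental doxycycline and 3.89 to 5.18 in mock-induced arrays, at least 16.3-fold higher. SNAP25, of the exocytosis machinery, was at least 9.84-fold higher at 7.33 to 8.11, 2.19 to 2.37 and 5.09 to 5.90. The mean log2 level over all 28 list genes with a probe set was 5.81 to 5.88 in induced and 5.75 to 5.91 in parental doxycycline arrays and overlapped, and 14 and 13 of the genes were under 4.5 on every array.

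The epithelial and mesenchymal genes of HEK293 cells had 5 of 10 higher and 2 lower (median 1.09). Of these, KRT19 and PAX2 passed the level limit through induced cells alone and 1 gene through parental doxycycline cells alone. The 7 genes above 4.5 in both groups had 3 higher and 1 lower (median 0.89). VIM, the intermediate filament vimentin, was abundant throughout, with means of 15.25 in induced and 13.96 in parental doxycycline cells. GATA3, a transcription factor of the developing kidney, read 11.69 to 12.01 in induced, 8.27 to 8.71 in parental doxycycline and 11.22 to 11.29 in mock-induced arrays, 10.0-fold higher. Over all 12 genes of the list with a probe set the mean log2 level was 8.30 to 8.40 in induced, 6.77 to 6.93 in parental doxycycline and 8.22 to 8.33 in mock-induced arrays, and 2 and 4 genes were under 4.5 on every induced and every parental doxycycline array.

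Most markers of other cell types were near background, with exceptions among the tested genes. Of 17 blood cell markers 0 were tested, and all 17 were under 4.5 on all 20 arrays. Differentiated kidney tubule markers had 1 of 14 tested, the endocytic receptor LRP2, 2.5-fold lower, and the other 13 were under 4.5 on all 20 arrays. Of 19 fibroblast and endothelial markers 3 were tested, and the other 16 were under 4.5 on all 20 arrays. ACTA2, smooth muscle actin, was 7.32-fold and COL3A1, type III collagen, 12-fold higher, and COL1A1 was not called. Means in induced and parental doxycycline cells were 9.25 and 6.37 for ACTA2, 8.17 and 4.58 for COL3A1, and 9.15 and 8.47 for COL1A1. LRP2 had 5.9 and 7.21 in that order.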

How the data were processed

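RNA of 20 samples (5 per group) was hybridized to Affymetrix Human Genome U133 Plus 2.0 arrays. GCRMA normalization was done by the authors, with a version that the sources used here do not state. The deposited data are log2 intensities between 2.19 and 16.6 for 50441 probe sets. Values near 2.19 are background, and the number of arrays limits the precision. Of the probe sets, 38070 name 1 gene in the platform annotation, 1423 several, 10886 none and 62 are controls. Gene numbers of 38018 were found in the RefSeq table (GRCh38.p14), and 0 symbols changed. For 9830 genes with several probe sets the one with the highest mean over all arrays was used. That table gave a chromosome from 1 to 22 or X to 10716 of the tested genes.

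Groups came from the sample labels. For each comparison limma 3.58.1 (R 4.3.3) was run on the arrays of its groups, and for the interaction on all 20 arrays. Genes were called at a Bonferroni-adjusted p under 0.01 over the 10735 genes tested, with the methods' level limit of 4.5. Folds are bounds, computed from 4.5, where the lower group read under 4.5 on every array, and for CCND1, whose induced mean was under 4.5. SEs are limma's and SDs are over arrays. The fit was checked on simulated data.

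The members, the 34 gene lists (969 entries, 839 with a probe set, 710 tested) and the tests were chosen with earlier results of these data known. Named are ZFP36, ZFP36L1, ZFP36L2 and ELAVL1, then the 8 largest falls and rises among called genes measured on every array and the 6 largest bounds each way. Added to these are the 6 largest each way among genes that differ from all 3 other groups, the 6 largest with opposite calls or shared with parental vehicle cells alone, the 3 smallest p of each list, and the 8 largest falls with a site. Alternatives were 3 scalings, 2 probe set rules, 3 filters, 2 treatments of the spread, the replicate block, Benjamini-Hochberg adjustment and leaving out each array. Sites were read from the study's site table in a shortened form, so no overlap was computed. Figures were drawn with Python 3.11.15 and matplotlib 3.10.9.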

Additional observations from a re-analysis of the deposited data

Results flagged for a closer look

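Single arrays stood apart from the other 4 of their group in some of the named genes, which chance does in about 1 in 20 groups. All 139 named genes were looked at in induced and parental doxycycline cells, except in groups under 4.5 on every array. Whether the number of such arrays exceeds that rate was not tested. In induced cells the arrays were replicate 3 for ZFP36 (4.56), DIS3 (11), DUSP6 (7.41) and INHBE (7.52), and replicate 4 for DTD2 (5.06), ZNF83 (10.56), HSPH1 (10.52) and RPL31 (12.51). In parental doxycycline cells they were replicate 5 for G3BP2 (12.37), PDIA4 (12.43), MSMO1 (12.29), PFDN2 (12.57) and SETD7 (12.02), replicate 4 for NDUFB6 (13.69) and replicate 3 for WDR12 (12.24). Parental doxycycline replicate 1 had a correlation with its group (0.9962) above that of the other 4.

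The difference between the lines changed with doxycycline for 5157 genes (limma, Bonferroni-adjusted p under 0.01 for the interaction). Among the genes named for the ZFP36 family, for the size or pattern of their difference or for a printed site, the interaction was negative on the log2 scale for PEG10 (-4.55), CYCS (-4.41), CPE (-4.39), HIGD1A (-4.28), SLC39A10 (-4.1), CA2 (-3.74), DTD2 (-3.66), DCK (-3.62), SLC25A24 (-3.52), EN2 (-3.46), TMEM33 (-3.42), PFDN2 (-2.91), SETD7 (-2.72), RFK (-2.5), HEY1 (-1.43), EPCAM (-1.41), SLFN11 (-1.17) and ELAVL1 (-0.39). It was positive for NEFM (1.91), ZSCAN18 (1.86), LOC100505715 (1.62), ZNF875 (1.59), GALNT14 (1.26) and KRT19 (0.83). For NEFM, PEG10, SLFN11 and KRT19 at least 1 group read under 4.5 on every array, so these sizes rest on background readings.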

How the results depend on the processing

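Counts of calls depended on the setting, and the cause was not tested. Centring on the hybridization controls left 1357 genes higher than all 3 other groups and 3220 with a changed line difference. The poly-A controls left 502 and 1462, with 117 opposite calls and 877 line differences. Without a level filter 1262 genes were higher than all 3 other groups and 33 had opposite calls, and 1 model over all 20 arrays gave 129 opposite calls. A separate spread per group left 1282 lower and 1476 higher genes, 692 and 534 relative to all 3 other groups, 11 opposite calls and 957 line differences. Benjamini-Hochberg adjustment gave 3929 and 5369, 3040 and 4365, 845 and 8023 in that order, with 8754 changed line differences.

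Replicate numbers did not pair the induced and parental doxycycline arrays (correlations of deviations -0.151 to 0.083), and 2 of the 5 induced arrays correlated best with their own number. Treated and untreated cells of a line were prepared together on each day, per the methods, but whether the numbers mark days is not stated. Induced and mock-induced arrays of the same number correlated at 0.0105 to 0.22, and parental doxycycline and vehicle arrays at -0.0615 to 0.195, and neither pairing was used in the comparisons of the report. With the replicate block 1905 genes were higher, 1100 and 951 were lower and higher than all 3 other groups, 26 had opposite calls and 1023 differed between the lines.

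Leaving out 1 array at a time gave 2116 to 2217 lower and 2651 to 2777 higher genes, 1553 to 1683 and 1664 to 2021 relative to all 3 other groups, 50 to 68 opposite calls, 1960 to 2436 line differences and 4807 to 5166 changed ones. With a level filter over any of the 4 groups, chosen after seeing the data, 2388 genes were lower and 3064 higher. Of the 139 named genes, 106 kept their direction and side of the threshold in every setting, and in 4409 gene settings 42 calls were lost, 7 were gained and 2 turned, both for RPL31 (-0.16 with averaged probe sets and -2.22 without the less specific ones). The call of RPL11 was lost without parental doxycycline replicate 2, 3 or 5 or induced replicate 3. Signals near background limit the folds given as bounds.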
